A study of Rattus norvegicus with 4 samples.

Results

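The genes described here make and load the peptides that class I molecules show at the cell surface, in surface colonocytes taken from the distal colon of rats with and without aldosterone. They were chosen by name: the inducible proteasome subunit genes Psmb8, Psmb9 and Psmb10, the constitutive subunit genes Psmb5, Psmb6 and Psmb7, and the class I genes Tap1, Tap2, Tapbp and B2m. Of these 10 genes, 7 had an array row that named them and no other gene, among 13215 named genes in all. Psmb10 and Psmb6 were not analysed here, and the row that names Tapbp also names Wdr46, so that it was not used. The rule takes the row with the highest mean where a gene has several, but each of the 7 genes had 1 row. The genes were picked with earlier results of the same arrays known, so all values below describe these rats and the p-values of the fit support nothing beyond that description.

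The cells came from 4 Wistar rats aged 12 weeks, each on its own Affymetrix exon array. All 4 rats had lost both adrenal glands 4 days earlier, which removes aldosterone and the adrenal glucocorticoids together, and all drank 0.9% NaCl. For 2 h, 2 rats had aldosterone (50 µg per 100 g body weight under the skin, with a minipump giving 10 µg per kg and hour), and their colons were then shaken for 40 min in 100 nM aldosterone. The other 2 rats had the vehicle injection, a minipump with polyethylene glycol 300 and a shaking solution with vehicle. Values are log2 expression values as deposited, and differences are aldosterone minus vehicle on that scale.

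The proteasome is a barrel-shaped protease that cuts unwanted proteins into peptides. Only some of its subunits do the cutting, and interferon signalling lets cells replace each of these with an inducible form: the product of Psmb8 takes the place of that of Psmb5, Psmb9 that of Psmb6, and Psmb10 that of Psmb7. The barrel with the inducible forms is called the immunoproteasome. Its peptides are pumped into the endoplasmic reticulum by the transporter made of Tap1 and Tap2, and tapasin, the product of Tapbp, holds class I molecules next to that transporter. B2m encodes beta-2 microglobulin, the light chain that every classical class I molecule needs to reach the surface. In the gut, epithelial cells show class I peptides to intraepithelial T cells.

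Psmb8, Tap1, Tap2 and Psmb9 lie side by side in the major histocompatibility complex, and their start regions are shown because they are the 4 members with the most negative differences. Psmb5, the constitutive counterpart of Psmb8, is shown for contrast. Each sequence runs from 250 bases before the start of the gene to 10 bases after it on the coding strand, as listed by RefSeq for the GRCr8 assembly. Psmb8 is at chr20:4657022-4657281 (minus strand), Tap2 at chr20:4652287-4652546 (minus strand), Tap1 at chr20:4668534-4668793 (minus strand), Psmb9 at chr20:4668750-4669009 (plus strand) and Psmb5 at chr15:32047370-32047629 (minus strand). Capitals mark matches, on either strand, to GAAANNGAA, the core of elements that interferon regulatory factors bind.
Psmb8: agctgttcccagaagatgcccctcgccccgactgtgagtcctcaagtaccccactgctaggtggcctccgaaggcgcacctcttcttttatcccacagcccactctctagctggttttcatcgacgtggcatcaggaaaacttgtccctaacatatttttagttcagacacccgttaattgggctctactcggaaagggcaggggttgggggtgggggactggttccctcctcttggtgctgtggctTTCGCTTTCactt
Tap2: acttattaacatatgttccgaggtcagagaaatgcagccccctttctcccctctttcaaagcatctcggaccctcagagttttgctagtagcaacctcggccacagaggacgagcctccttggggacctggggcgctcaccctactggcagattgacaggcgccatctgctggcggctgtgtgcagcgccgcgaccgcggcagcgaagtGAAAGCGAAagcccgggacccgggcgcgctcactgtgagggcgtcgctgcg
Tap1: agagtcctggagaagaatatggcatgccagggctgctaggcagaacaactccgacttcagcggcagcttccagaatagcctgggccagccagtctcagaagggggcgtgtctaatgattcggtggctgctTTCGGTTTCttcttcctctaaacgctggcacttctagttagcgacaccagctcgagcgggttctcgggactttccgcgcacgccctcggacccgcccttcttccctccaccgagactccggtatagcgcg
Psmb9: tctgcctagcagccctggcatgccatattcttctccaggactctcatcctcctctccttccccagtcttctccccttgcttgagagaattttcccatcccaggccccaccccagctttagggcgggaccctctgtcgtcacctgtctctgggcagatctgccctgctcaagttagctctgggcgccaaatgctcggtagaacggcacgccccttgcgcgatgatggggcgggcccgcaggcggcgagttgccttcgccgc
Psmb5: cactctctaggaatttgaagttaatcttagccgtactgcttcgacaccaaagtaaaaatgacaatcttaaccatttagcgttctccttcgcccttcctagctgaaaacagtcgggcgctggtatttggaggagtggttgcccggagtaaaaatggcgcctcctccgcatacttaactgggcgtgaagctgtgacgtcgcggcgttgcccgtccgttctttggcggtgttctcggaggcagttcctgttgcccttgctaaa

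Within the 250 bases before the start, this core was found in 5 of the 10 members (Psmb10, Tap1, Tap2, Tapbp and B2m) against 8.12% of 33469 promoters in the table. In Psmb8 the match runs across the start, so that it is found only when the 50 bases after the start are added. With these bases, 6 of the 10 members and 9.71% of all promoters held a match. The overlapping pairs in Psmb10 and Tapbp were counted as separate matches, 3 in Psmb10 and 2 in Tapbp. No match was found in these bases of Psmb9, Psmb5, Psmb6 or Psmb7. The Tap1 match, 120 bases before the start of Tap1, lies between the starts of Tap1 and Psmb9. It is outside the bases searched for Psmb9.

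The other motifs were searched on both strands of the same 250 bases. TTCNNNGAA, a STAT element, was found in Psmb8 alone (TTCCCAGAA), against 7.67% of promoters. GGNNNTTCC, the core of NF-kappa B elements, was found in Psmb5, Tap1, Tapbp and B2m, against 15.4% of promoters. AGAACA, the half-site of the receptors for aldosterone and glucocorticoids, was found in Psmb5, Tap1 and B2m, against 17.5% of promoters. Tap1 and Psmb9 are read in opposite directions from starts 457 bases apart, and their windows share 44 bases. A match shows only that these letters are present.

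Of the measured inducible subunit genes, Psmb8 had the more negative difference between aldosterone and vehicle rats. It stood at 6.65 and 6.55 with vehicle and at 4.03 and 4.83 with aldosterone. The groups did not overlap, and the gap of 1.72 between them exceeded the distance between the aldosterone rats, 0.80. The group means were 6.60 ± 0.068 and 4.43 ± 0.57 (SD, n = 2 each), a difference of -2.17 with a 95% interval from -2.99 to -1.35, or 4.51-fold lower with aldosterone. In bulk RNA such as this, fewer cells of a type and less RNA per cell cannot be told apart. Only Duoxa2, which encodes a maturation factor of an epithelial oxidase, and Lbp, which encodes the lipopolysaccharide binding protein, had a more negative difference among 19403 rows, at -3.09 and -2.85 (both named after their values were seen).

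Psmb9, whose product replaces the Psmb6 subunit, did not separate the groups. It stood at 5.12 and 4.13 with vehicle and at 3.87 and 4.49 with aldosterone. The first vehicle rat was the highest and the other 3 lay within 0.62 of each other. The difference was -0.45 (interval -1.59 to 0.70), and without vehicle replicate 1 it was 0.045.

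**Figure D1:**
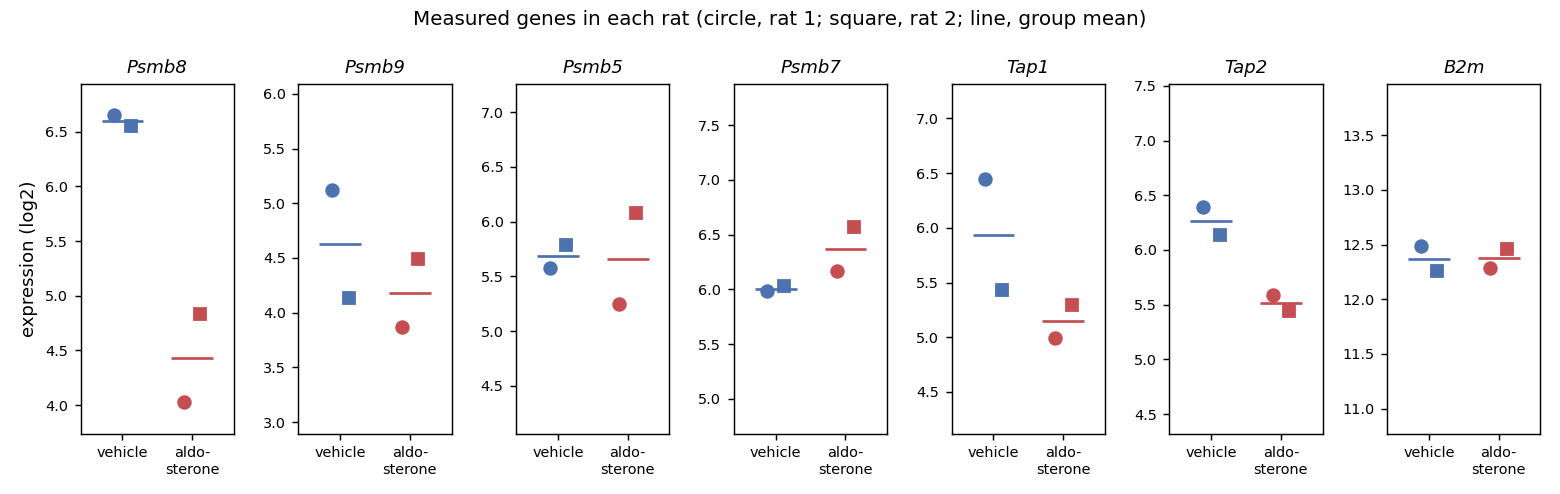
Log2 expression of the 7 measured genes in each rat, with a panel per gene and the same height of axis in log2 units in every panel; points are single rats and lines are means of 2 rats. Psmb8 and Tap2 separate the groups clearly and Tap1 by a narrow gap, each lower with aldosterone. Psmb7 separates them by a narrow gap in the other direction, while the points of Psmb9, Psmb5 and B2m overlap.

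Neither constitutive subunit gene had both aldosterone values below both vehicle values. Psmb5 stood at 5.58 and 5.79 with vehicle and at 5.24 and 6.08 with aldosterone, so that the aldosterone rats lay on either side of the vehicle rats. Its difference was -0.023 with an interval from -0.89 to 0.84, wide enough to hold a change of either sign. It was 0.39 without aldosterone replicate 1 and -0.44 without aldosterone replicate 2. Psmb7, the counterpart of Psmb10, stood at 5.99 and 6.03 with vehicle and at 6.17 and 6.57 with aldosterone. Both aldosterone values were above both vehicle values, with a difference of 0.37 and an interval from -0.10 to 0.83.

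The classes were contrasted within each rat, as the mean of Psmb8 and Psmb9 minus the mean of Psmb5 and Psmb7, which removes whatever moves all 4 rows of an array alike. Only the change of this contrast between rats has a meaning, since rows of different genes have no common scale. It was 0.099 and -0.56 with vehicle and -1.76 and -1.67 with aldosterone, and the groups did not overlap. The difference of -1.48 compares with an SD of 0.47 between vehicle rats and 0.066 between aldosterone rats. Psmb8 made most of it: with Psmb8 left out the difference was -0.62, and with Psmb9 left out it was -2.34. For the only complete pair of counterparts, Psmb8 minus Psmb5 was 1.07 and 0.76 with vehicle and -1.22 and -1.25 with aldosterone, a difference of -2.15.

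The same was done against the rest of the proteasome core, as the mean of 12 subunit genes that have no inducible form or are constitutive and that had a mean of 4 or more, a comparison chosen after the values were seen. This mean was 6.85 and 6.37 with vehicle and 6.49 and 6.89 with aldosterone, so that it differed more between rats of a group than between the group means (0.077). Relative to it, the difference was -2.25 for Psmb8, -0.87 for Tap1, -0.83 for Tap2 and -0.52 for Psmb9. In each of these 4 genes both aldosterone rats lay below both vehicle rats on this relative scale, as they did in 6.85% of all rows and 18.3% of rows with a mean of 4 or more. B2m overlapped on this scale too. For Psmb9, whose plain values overlapped, the relative values were -1.73 and -2.24 with vehicle and -2.62 and -2.40 with aldosterone.

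**Figure D2:**
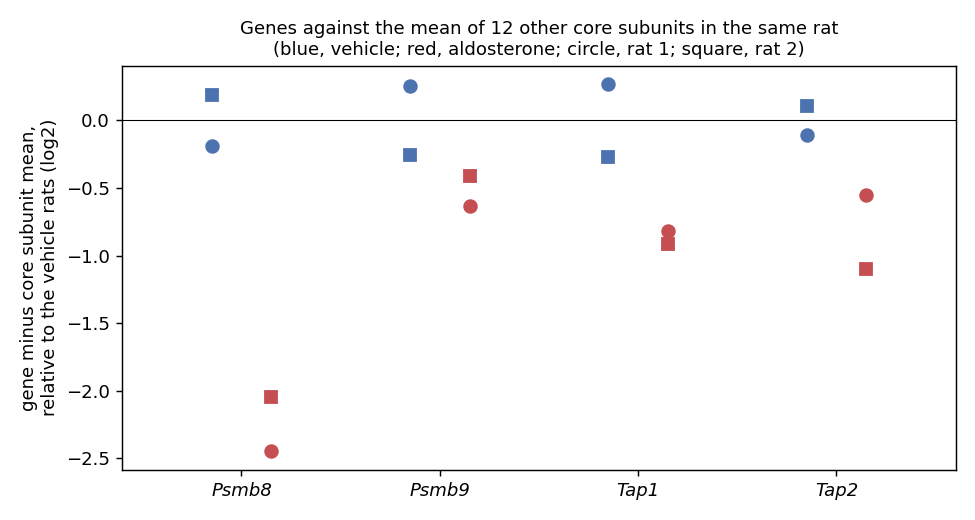
Value of Psmb8, Psmb9, Tap1 and Tap2 in each rat minus the mean of 12 other core subunit genes of the same rat, shifted so that the mean of the vehicle rats is 0 (log2). Both aldosterone points lie below both vehicle points for each gene shown, as in 18.3% of rows with a mean of 4 or more on this scale, which was chosen after the values were seen; Psmb8 lies furthest below, with a difference of -2.25.

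Both transporter genes were lower in the aldosterone rats. Tap2 stood at 6.39 and 6.14 with vehicle and at 5.59 and 5.45 with aldosterone. The rats of a group lay within 0.26 of each other and the gap between the groups was 0.55. Its difference was -0.75 (interval -1.13 to -0.37), or 1.68-fold lower. Tap1 stood at 6.44 and 5.43 with vehicle and at 4.99 and 5.30 with aldosterone. The groups were 0.13 apart, less than the distance of 1.02 between the vehicle rats, and the interval of the difference of -0.79 ran from -1.84 to 0.26. Without vehicle replicate 1 the difference of Tap1 was -0.28, and without vehicle replicate 2 it was -1.30.

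B2m was among the brightest rows of the array and differed little between rats. It stood at 12.48 and 12.26 with vehicle and at 12.28 and 12.46 with aldosterone. The groups overlapped, the difference was 0.0030 and the interval ran from -0.38 to 0.38.

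With 2 rats a group, few of these differences passed a test over all rows. In limma with a constant prior, 0 of the 7 genes passed an adjusted p of 0.05, as did 0% of 19403 rows. At an unadjusted p under 0.05 in that fit there were 2 of the 7, Psmb8 and Tap2. The share of all rows was 4.53% in either direction and 2.34% for lower rows. Among rows with a mean of 4 or more, as all 7 genes had, it was 523 of 4815 in either direction. The adjusted p of that fit was 0.632 for Psmb8, 0.757 for Tap2 and 0.9998 for the others. In limma with a prior that follows expression level (intensity trend), 0.108% of all rows passed, and 18 of those 4815 rows. With this prior Psmb8 passed at an adjusted p of 0.0362 and the other 6 genes did not. That call ended without vehicle replicate 1 (adjusted p = 0.197), without vehicle replicate 2 (adjusted p = 0.294) and with the replicate number as a block (adjusted p = 0.127). Over all its alternatives the adjusted p of Psmb8 ran from 8.01e-07 to 0.990, and its difference from -2.57 to -1.77. The number of arrays limits the precision.

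By order alone, both aldosterone values were below both vehicle values in 3 of the 7 genes (Psmb8, Tap1 and Tap2), against 11.1% of all rows and 18.7% of the 4815 rows with a mean of 4 or more. They were above in 1 of the 7 (Psmb7), against 16.7% and 13.4%. By size, 3 of the 7 were lower by 1.5-fold or more, against 2.26% of all rows and 6.79% of the 4815 brighter rows. The difference was negative in 5 of the 7, against 41.7% of all rows and 55.5% of the 4815 brighter rows. The median was -0.45, against 0.024 over all rows and -0.041 over the brighter rows. All 7 genes had a mean of 4 or more. Since earlier results of these arrays helped to choose the genes, nothing is read from these shares.

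**Figure D3:**
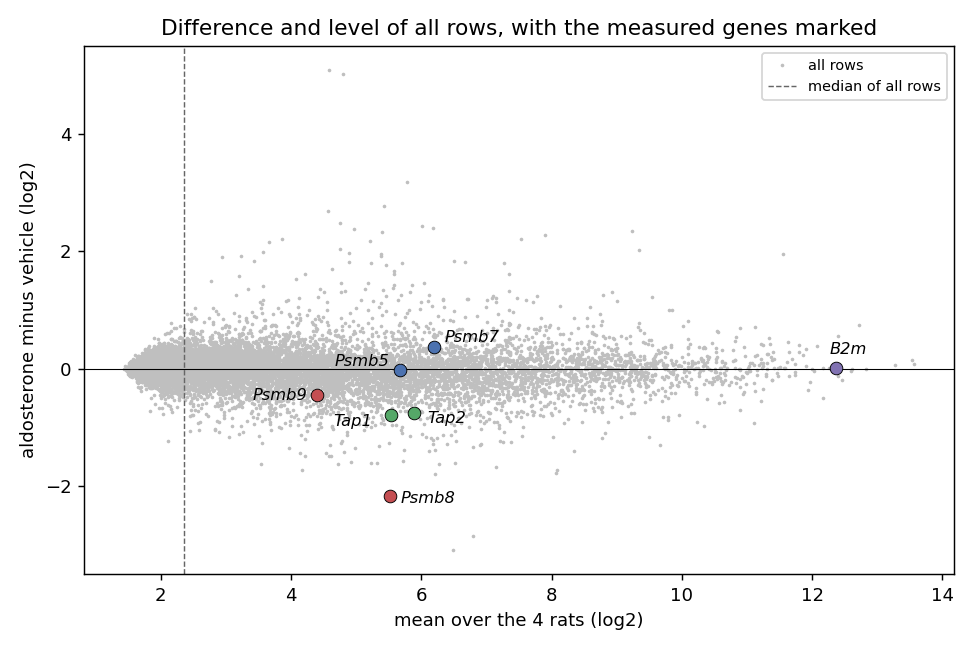
Difference between aldosterone and vehicle rats (log2, 2 rats each) against the mean over 4 rats (log2) for 19403 rows, with the 7 genes marked; the dashed line is the median of row means, 2.35. Psmb8 lies at -2.17, near the lower edge, Tap1 and Tap2 below most rows of their level, and B2m at the bright end on the zero line.

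The 4 neighbouring members were set beside the genes around them. In the RefSeq table for GRCr8 the order is Tap2, Psmb8, Tap1, Psmb9, with no other protein-coding gene of the table between them. Of the 16 protein-coding genes that flank them, 8 on each side, 14 were measured, 7 of them with a mean of 4 or more. Both aldosterone values were below both vehicle values in 2 of the 14, against 11.1% of all rows: Brd2, which encodes a chromatin reader of acetylated histones (difference -0.33), and Rxrb, which encodes a retinoid X receptor (-0.39). They were above in 2 of the 14, against 16.7%: Btnl3, which encodes a butyrophilin-like protein of the epithelium (0.40), and the class II gene RT1-DOa (0.15). The class II gene RT1-DMa lay at 7.19 and 8.47 with vehicle and at 5.78 and 7.41 with aldosterone, overlapping, and RT1-Bb at 4.53 and 4.34 against 4.36 and 6.08. The difference of RT1-DMa, -1.23, was more negative than those of Tap1 and Tap2. In all, 8 of the 14 differences were negative, against 41.7% of all rows and 55.5% of the 4815 brighter rows. The measured genes next to the 4 members were among the negative ones. They were RT1-DOb on one side (-0.077), and RT1-DMb (-0.18), RT1-DMa and Brd2 on the other. With the members they make a run of 8 measured genes with a negative difference, a run seen only after the values were known. RT1-DOb and RT1-DMb had means of 2.08 and 2.76, near the floor, and their groups overlapped, as did those of RT1-DMa and Psmb9. Nothing is read from this run.

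**Figure D4:**
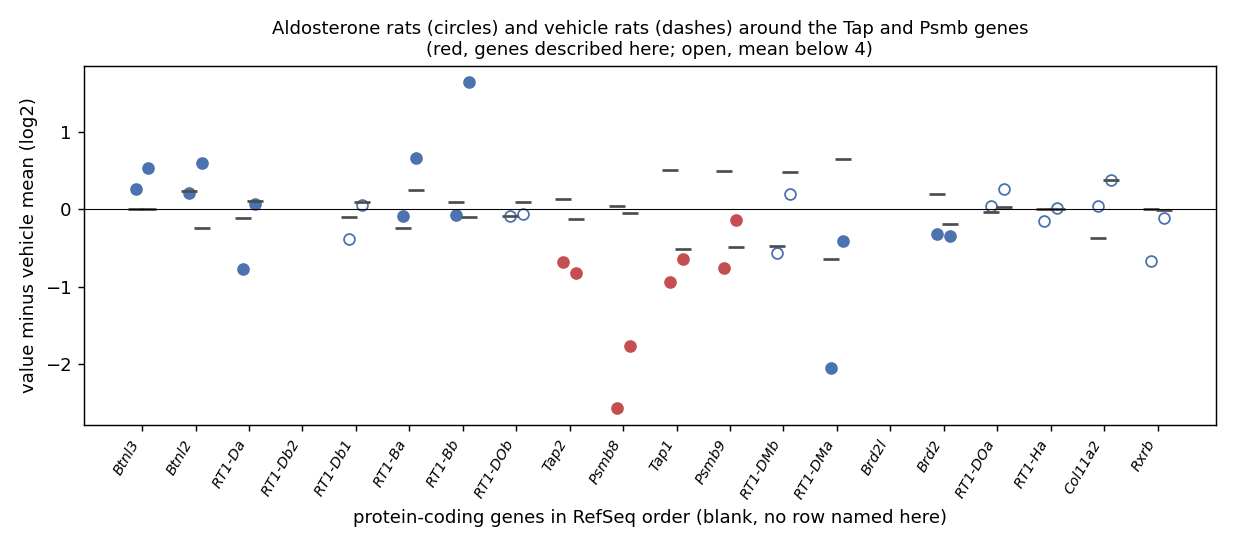
Values of the aldosterone rats (circles) and vehicle rats (dashes) minus the vehicle mean (log2) for protein-coding genes in RefSeq order around the 4 members (red); open circles mark rows with a mean below 4. Psmb8 and Tap2 stand clear of their vehicle values, while RT1-DMa and RT1-Bb spread between rats of a group.

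No other measured gene of the proteasome core or cap differed by as much as Psmb8. Of 11 other measured core subunit genes, 0 passed adjusted over all rows in limma with either prior, 8 differences were positive and 3 negative, and the median was 0.10 against 0.024 over all rows. The 3 smallest unadjusted p-values were those of Psma6 (8.83 and 7.98 in vehicle rats, 8.61 and 8.85 with aldosterone), Psmb4 (8.83 and 8.55 against 8.57 and 9.12) and Psmb11, the thymus form, which lay near the floor at 1.82 and 1.81 against 1.92 and 1.91. The most negative difference was that of Psma5, -0.28, named after its values were seen. Of 16 measured genes of the regulatory cap, 0 passed, with 8 differences of each sign and a median of 0.0025. Within the cap, Psmc1, an ATPase gene, lay at 7.54 ± 0.22 in vehicle and 6.95 ± 0.081 in aldosterone rats, Psmc2, another ATPase gene, at 6.47 ± 0.025 and 6.88 ± 0.11. The ubiquitin receptor gene Adrm1 lay at 7.67 and 7.59 against 7.95 and 7.86. Of the genes for activators and assembly only Psme3, Psme4 and Psmf1 were measured, with overlapping groups and differences of 0.17, -0.32 and -0.32.

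Genes that trim and load peptides had differences of both signs. Of 11 measured, 0 passed, 6 differences were negative and 5 positive, with a median of -0.041. Lap3, a cytosolic leucine aminopeptidase gene induced by interferon, had the most negative difference at -0.75 (8.15 and 7.37 in vehicle rats, 6.71 and 7.31 with aldosterone). Both aldosterone values were below both vehicle values, and the nearest values of the groups were close. The chaperone gene Canx lay at 8.39 and 8.25 against 8.52 and 8.69, and Hspa5, the main chaperone of the endoplasmic reticulum, at 9.67 and 9.55 against 9.42 and 9.42.

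Of 14 measured genes for class I heavy chains and their relatives, 0 passed and the median difference was 0.029. In 10 of them the mean lay below 3, close to the floor. RT1-CE2 stood at 5.48 and 4.17 with vehicle and at 5.94 and 5.96 with aldosterone, opposite in sign to Tap1 and Tap2. RT1-M1-4 and RT1-T18 had differences of 0.26 and -0.22, with means of 2.15 and 3.39. The RT1 genes are near-identical copies in part, so that a row may gather signal from several of them and these values are uncertain.

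Upstream of the members, Irf1 was the regulator with the most negative difference. Irf1, a transcription factor gene induced by interferon gamma that acts on class I and immunoproteasome genes, stood at 7.41 and 6.70 with vehicle and at 6.06 and 5.93 with aldosterone. Its groups did not overlap and its difference was -1.06 (interval -1.80 to -0.32, adjusted p = 0.891 in limma). Of 17 measured regulators, 0 passed, 8 differences were negative and 9 positive, and the median was 0.013. Socs3, a feedback inhibitor of cytokine signalling, lay at 3.55 and 3.04 against 2.65 and 2.77, and the NF-kappa B subunit gene Rela at 6.46 and 6.18 against 6.63 and 6.53. Stat2, Jak1, Ifngr1 and Irf2, chosen after their values were seen, had differences of 0.077, 0.12, 0.013 and 0.026. Irf8, Jak2, Stat3 and Irf9, also chosen after their values were seen, had differences of -0.41, -0.26, -0.17 and -0.087. The groups overlapped in each of these genes.

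Other genes known to respond to interferons had differences of both signs, none as large as that of Psmb8. Of 17 measured, 0 passed, 11 differences were negative and 6 positive, and the median was -0.038, with 10 means below 3. Oasl, an oligoadenylate synthetase-like gene, stood at 7.22 and 7.09 with vehicle and at 6.79 and 6.42 with aldosterone. Mx1 and Mx2, genes of antiviral GTPases, had means near the floor and differences of opposite sign, -0.33 and 0.35.

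**Figure D5:**
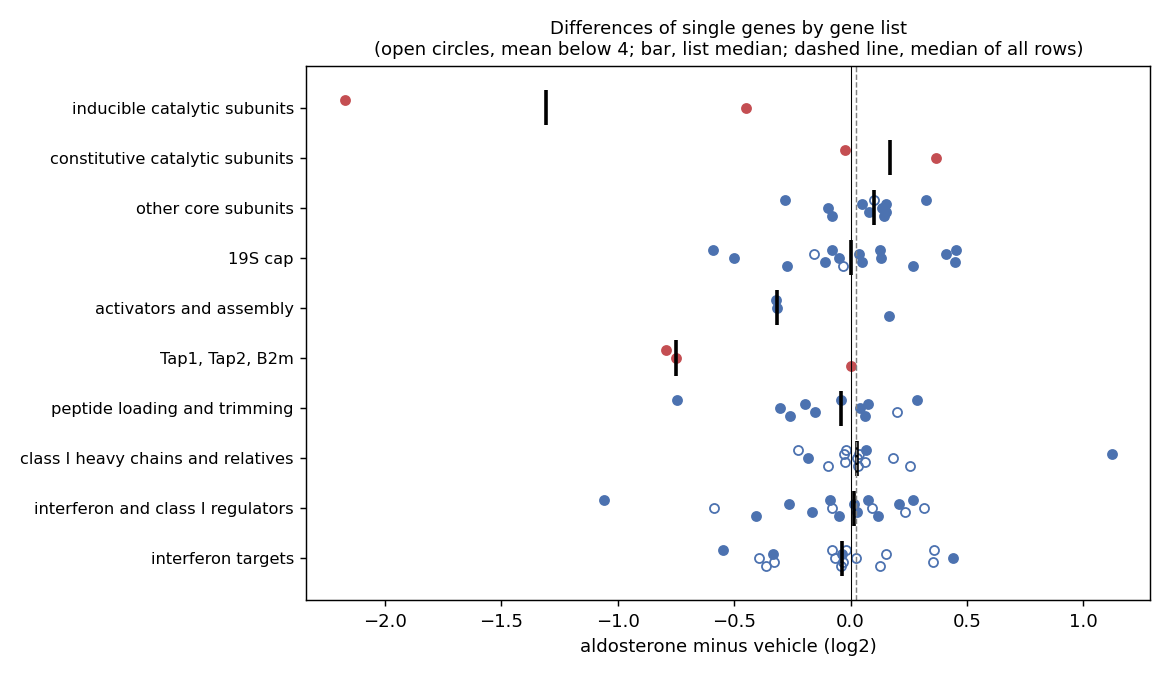
Difference between aldosterone and vehicle rats (log2) for each measured gene of 10 lists, with the members in red and other genes in blue; bars are list medians and the dashed line is the median of all rows, 0.024. Psmb8 at -2.17, Irf1 at -1.06 and RT1-CE2 at 1.12 lie farthest from the other genes.

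Of 14 measured markers of surface colonocytes, the labelled cell type, 12 lay at 4 or more in all 4 arrays, among them Krt20, Cdh1 and Epcam, named after their values were seen, at 10.97 to 11.81. The exceptions were Krt18, with a mean of 3.72, and Slc9a3, named after its values were seen, at 2.48 and 3.99 with vehicle and 8.39 and 3.44 with aldosterone. The 3 smallest p-values in this list were those of Slc26a3, the chloride-bicarbonate exchanger gene (11.96 and 12.30 in vehicle rats, 12.75 and 12.61 with aldosterone), Krt18 and Aqp8, each higher in both aldosterone rats with a difference of 0.55, 0.52 and 0.29. Leukocytes carry immunoproteasomes at all times, so their markers were read beside Psmb8. Of 20 measured leukocyte markers, 16 had a mean below 3. Rows that low have little room to show a decrease, so these markers cannot show whether leukocytes were fewer. Both aldosterone values were below both vehicle values in 0 of the 20, against 11.1% of all rows, and above in 3 of the 20, against 16.7%. Their summed level was 50.2 and 48.2 with vehicle and 48.5 and 53.0 with aldosterone. Ptprc, the common leukocyte antigen gene, lay at 3.23 and 2.43 against 2.46 and 2.44, and Cd79b, of B cells, at 2.95 and 2.86 against 2.98 and 3.82. Lyz2, the lysozyme gene of macrophages, lay at a mean of 3.36 against 3.85. The differences of the T and NK cell markers ran from -0.11 for Cd4 to 0.22 for Cd7, both named after their values were seen, and had both signs. The first vehicle rat, which was highest in Ptprc, was also highest in Psmb9, Tap1 and Irf1. Of the other leukocyte markers, only Cd8a and Ms4a1, named after their values were seen, were also highest in that rat. Their means were near the floor, at 2.16 and 1.92. Cd79b, Lyz2, Laptm5 and Coro1a were highest in aldosterone replicate 2, the last 2 named after their values were seen. Coro1a, the 1 marker of this list with a mean of 4 or more, lay at 4.67 and 3.76 against 3.84 and 5.17. The part of leukocytes in the values of Psmb9, Tap1 and Irf1 was not tested. In all, 5 of the 7 members were highest in the first vehicle rat, as were 41.1% of rows with a mean of 4 or more. For Psmb8 the vehicle rats differed by 0.096, and the part of leukocytes in its difference was not tested.

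Of 6 measured markers of stroma and vessels, 5 had a mean below 3, and their mean level was 2.34 and 2.50 with vehicle and 2.34 and 2.51 with aldosterone. The 6 measured markers of goblet, crypt and endocrine cells summed to 21.7 and 22.2 with vehicle and 21.4 and 22.6 with aldosterone. Of these, 5 had a mean below 3, and the sum rests largely on the goblet cell gene Tff3, named after its values were seen. Tff3 lay at 11.12 and 10.74 with vehicle and at 9.44 and 11.30 with aldosterone, so that it spread widely between the aldosterone rats. Of 9 genes chosen to check the response to the hormone, 6 had both aldosterone values above both vehicle values, against 16.7% of all rows. In limma 0 of the 9 passed with the constant prior, as did 0% of rows. With the intensity trend 4 passed, against 0.108% of rows. The median difference was 1.61. This list too was chosen with earlier results of these arrays known.

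The genes nearest to Psmb8 in pattern were found by the distance between 4 values after subtraction of each gene's own mean, among 4131 other genes with a mean of 4 or more. They were Rem2, a small GTPase gene (distance 0.74), Pkp1, which encodes the desmosomal protein plakophilin 1 (0.82), and Rasd1, a Ras-related gene (0.90). The profile of Psmb8 itself had a length of 2.25 on this scale, and these genes had smaller differences, -1.48, -1.42 and -1.39. Nearest to Psmb9 were Bpgm (0.12), Eif2b4 (0.15) and Slc4a7 (0.17), with a profile length of 0.94. These likenesses rest on 4 rats and are a description.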

How the data were processed

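The authors deposited 1 table of log2 expression values for 19403 rows (transcript clusters) on 4 arrays. The tools named, per the submitters' processing notes, were Partek, Affymetrix Expression Console and RMA, with versions and genome build not given in the sources used here. The log2 scale was read from the range of the values, 1.36 to 13.7. Genes were named through the platform annotation, using rows with 1 symbol (13327 rows). The fit used all rows (R 4.3.3, limma 3.58.1: lmFit, eBayes with a constant prior, treatment only, two-sided, Benjamini-Hochberg over all rows, threshold 0.05). Groups follow the labels. The members and lists were chosen with earlier results of these data known. Named are the members, up to 3 genes of each list with the smallest unadjusted p, and the 3 nearest profiles of each inducible gene. Alternatives were other normalizations, filters, priors, a replicate block and leaving out each array. Intensity trend combined with the block or with arrays left out, and inducible genes left out singly, were chosen after seeing the data. The fit was tested on simulated data. Same-numbered rats share only a number. Promoters came from RefSeq (GRCr8). Python 3.11.15 with pandas 2.3.3 wrote the tables, and matplotlib 3.10.9 drew the figures.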

Additional observations from a re-analysis of the deposited data

How the results depend on the processing

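Psmb8, Psmb7, Tap1 and Tap2 kept their direction under each of the 16 alternatives run for each gene. Among the other 3 genes, Psmb9 ran from -0.94 to 0.045 with single rats left out, the latter without vehicle replicate 1. Psmb5 turned to 0.043 with quantile normalization, and ran from -0.44 to 0.39 with single rats left out (0.081 without vehicle replicate 2). B2m turned to -0.047 with quantile normalization and to -0.055 with centred arrays, and ran from -0.11 to 0.12 with single rats left out (-0.086 without aldosterone replicate 2). The difference between inducible and constitutive genes ran from -1.81 to -1.15 with single rats left out. It was -0.62 with Psmb8 left out and -2.34 with Psmb9 left out. The number of members lower in both aldosterone rats ran from 3 to 5 with single rats left out, and the number higher in both from 1 to 2. Limma called 0 rows in the main fit, 1 (Scnn1g) with rows below the median left out, 21 with the intensity trend and 6 with the intensity trend and the replicate block. With the intensity trend and single rats left out it called 7, 8, 137 and 142, and a group with 1 array was then assumed to vary like the other. The replicate block with the constant prior called 0. The deviations of same-numbered rats correlated at 0.15 over all rows. Where calls changed, the cause was not tested. Rows near the floor, such as most RT1 and leukocyte genes, have little room to show a decrease.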
